A study of Homo sapiens with 12 samples.

Results

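The genes described here are 38 human genes that fold, oxidise, check and dispose of proteins in the endoplasmic reticulum (ER), together with the sensors that report its state. They were chosen by name and all 38 are among the 58735 genes of the deposited count table, each in 1 row. By role they comprise 10 chaperones and cochaperones around BiP, 3 genes of the lectin cycle that folds glycoproteins, 8 disulfide isomerases and oxidases, 9 genes of ER-associated degradation (ERAD), 6 sensors and transcription factors of the unfolded protein response (UPR), and 2 ER membrane genes. RNA was sequenced from HepG2, an established human liver cancer line that secretes many plasma proteins, in 12 libraries that form 4 groups of 3. Control received vehicle, NOB received nobiletin at 5 µM, SOR received sorafenib at 2 µM and SOR+NOB received both at these doses. Nobiletin is a methoxylated flavone found in the peel of citrus fruit. Sorafenib, a drug for advanced liver cancer, inhibits several kinases, among them RAF and VEGF receptor kinases. All groups are the same line in the same medium, and the labels give no exposure time. They also do not say whether the 3 libraries of a group came from separate cultures, so p-values measure the spread between these libraries, which may be technical.

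Proteins that enter the ER are bound by BiP (HSPA5), an ATP-driven chaperone whose cycle is set by J-domain cochaperones and exchange factors, while calnexin and calreticulin hold glycoproteins and disulfide isomerases join their cysteines. Chains that fail to fold are drawn back through the membrane by the SYVN1-SEL1L complex and degraded by the proteasome. When unfolded proteins build up, the sensors ERN1 (IRE1), EIF2AK3 (PERK) and ATF6 start the UPR. ERN1 splices XBP1 mRNA into the form that encodes an active factor, ATF6 is cleaved in the Golgi to release one, and both raise chaperone and ERAD genes, whereas EIF2AK3 slows translation and favours ATF4. Gene counts do not separate spliced from unspliced XBP1, and neither cleavage nor phosphorylation was measured.

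Promoter sequences are shown because 11 of the 35 members with a promoter window (31.4%) hold an element searched for, while the other 24 hold none. The share over all genes with a window was 1.08%. ATF6 and XBP1 raise chaperone and ERAD genes, so choosing such genes by name is not independent of elements that these factors bind. Promoter windows from RefSeq (GRCh38.p14, 250 bases before to 50 after the start) were found for 35 of the 38 members, and 3 elements that ATF6 and XBP1 are known to bind were searched on both strands. The ER stress response element (ERSE) was searched as CCAAT, 9 bases of any kind and CCACG, ERSE-II as ATTGGNCCACG and the UPR element as TGACGTGG. At least 1 exact ERSE was in a window of 8 members (22.9%), against 25 of 27305 genes with a window (0.0916%). ERSE-II was found in HERPUD1, HYOU1 and SDF2L1 (8.57% of members) and in 0.0696% of all genes. The UPR element was in HYOU1 alone among the members (2.86%, against 0.927% of all genes), where it overlaps 1 of its 2 ERSE-II copies. Besides HSPA5, CALR and XBP1, the members with ERSE were CANX, CRELD2, ERO1B, HSP90B1 and PDIA6. A match is a run of letters and no evidence of binding, and no match says only that these letters are not in the window.

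The windows of 7 members that the values turn on follow, 5′ to 3′ on the gene's strand, with the matches in capitals. They are HSPA5 (chr9:125241294-125241593, minus strand), CALR (chr19:12938359-12938658, plus), XBP1 (chr22:28800520-28800819, minus), HERPUD1 (chr16:56931892-56932191, plus), SDF2L1 (chr22:21642052-21642351, plus), HYOU1 (chr11:119057156-119057455, minus) and AGR2 (chr7:16804950-16805249, minus). AGR2 is shown as the member with the largest fold changes, and its window holds none of the 3 elements. That window lies inside the gene as the count table places it (16791811 to 16833433), so the upstream start was not searched.
HSPA5: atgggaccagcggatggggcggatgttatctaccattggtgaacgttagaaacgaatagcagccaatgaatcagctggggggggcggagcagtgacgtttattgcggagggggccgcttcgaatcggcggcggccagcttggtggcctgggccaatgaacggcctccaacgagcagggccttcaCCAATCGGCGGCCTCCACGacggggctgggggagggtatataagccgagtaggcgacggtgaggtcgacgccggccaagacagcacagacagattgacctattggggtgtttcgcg
CALR: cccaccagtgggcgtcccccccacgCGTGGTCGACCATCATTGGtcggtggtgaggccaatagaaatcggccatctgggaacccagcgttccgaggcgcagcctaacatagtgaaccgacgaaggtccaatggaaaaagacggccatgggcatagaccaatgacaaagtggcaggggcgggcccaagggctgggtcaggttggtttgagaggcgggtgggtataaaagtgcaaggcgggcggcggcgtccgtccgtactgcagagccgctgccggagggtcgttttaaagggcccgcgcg
XBP1: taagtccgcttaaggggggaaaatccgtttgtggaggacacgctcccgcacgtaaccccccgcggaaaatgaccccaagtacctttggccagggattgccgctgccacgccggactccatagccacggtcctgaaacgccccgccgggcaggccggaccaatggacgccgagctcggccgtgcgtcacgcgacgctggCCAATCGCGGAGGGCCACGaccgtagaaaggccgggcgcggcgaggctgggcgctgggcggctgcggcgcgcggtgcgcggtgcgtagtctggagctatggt
HERPUD1: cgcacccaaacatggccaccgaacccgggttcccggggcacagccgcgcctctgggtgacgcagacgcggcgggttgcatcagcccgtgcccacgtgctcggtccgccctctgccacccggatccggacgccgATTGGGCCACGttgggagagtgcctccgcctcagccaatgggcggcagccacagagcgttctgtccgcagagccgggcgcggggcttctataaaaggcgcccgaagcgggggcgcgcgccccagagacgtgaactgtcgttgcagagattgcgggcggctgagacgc
SDF2L1: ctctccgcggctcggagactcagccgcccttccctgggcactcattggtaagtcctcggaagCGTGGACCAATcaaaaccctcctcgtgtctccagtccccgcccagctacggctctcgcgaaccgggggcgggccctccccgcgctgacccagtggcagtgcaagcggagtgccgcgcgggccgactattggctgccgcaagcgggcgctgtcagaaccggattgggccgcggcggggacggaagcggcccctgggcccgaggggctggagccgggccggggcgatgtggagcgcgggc
HYOU1: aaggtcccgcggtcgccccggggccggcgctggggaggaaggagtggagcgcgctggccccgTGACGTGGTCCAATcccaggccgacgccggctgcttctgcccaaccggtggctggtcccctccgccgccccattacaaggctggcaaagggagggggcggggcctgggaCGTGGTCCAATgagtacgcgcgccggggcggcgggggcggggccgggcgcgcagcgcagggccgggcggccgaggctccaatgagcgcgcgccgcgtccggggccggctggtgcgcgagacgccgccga
AGR2: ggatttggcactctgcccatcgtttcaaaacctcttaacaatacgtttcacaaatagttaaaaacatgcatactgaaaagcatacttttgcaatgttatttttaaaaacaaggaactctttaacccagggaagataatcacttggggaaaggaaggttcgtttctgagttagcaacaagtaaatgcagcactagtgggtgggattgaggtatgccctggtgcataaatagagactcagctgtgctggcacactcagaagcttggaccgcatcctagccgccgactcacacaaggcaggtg

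The libraries held 17945656 to 25669823 counts, and 37 of the 38 members passed the filter on low counts. DERL3, a relative of DERL1 and DERL2, had 1 count in NOB replicate 1 and 0 in the other 11 libraries and was not tested. The hepatic markers, 11 of 11, were above 1 CPM in every group. Their summed levels were 44931 to 47018 CPM in Control, 30502 to 31047 in NOB, 80901 to 84279 in SOR and 31855 to 34623 in SOR+NOB. Single markers moved in both directions. Against Control 2 rose and 6 fell in NOB, 7 rose and 3 fell in SOR, and 5 rose and 6 fell in SOR+NOB. Shares over all genes are given with each comparison below. In SOR+NOB mean ALB was 8481 CPM against 6428 in Control, while APOB was 7309.6 against 19331. The 5 leukocyte markers summed to 599 to 624 CPM in Control, 707 to 725 in NOB, 329.7 to 343 in SOR and 208 to 229.8 in SOR+NOB. Nearly all of this was LYZ, with group means of 609, 715, 325 and 221 CPM, while CD3E had 0 counts in every library and PTPRC, the defining leukocyte gene, reached a mean of 0.109 CPM in SOR and 0 elsewhere. The 4 endothelial markers summed to at most 17.1 CPM, with KDR at 0 in every library, and the 5 fibroblast markers to at most 24.7 CPM. What part the changes in hepatic markers had in the results was not tested. SOR+NOB replicate 1 stood apart. Set against replicates 2 and 3 it gave a chi-square per tested gene of 26.2 and 18.4, where all other pairs within a group gave 2.74 to 5.44. It had the fewest genes with a count, 20138, and for each comparison that uses it the count of members is also given without it. Reads of 22 members share their locus with another gene that has counts, and for SDF2 and SYVN1 that partner (SUPT6H and FAU) has more counts than the member. The counting setting for strand is not given in the sources used here, so the values of SDF2 and SYVN1 are less certain.

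Levels are given as TMM-scaled CPM, as mean ± SD of 3 libraries, and log2 fold changes are edgeR estimates ± SE. A gene rose or fell where its adjusted p was under 0.05. Between genes only FPKM, which divides by gene length, is compared. In Control the highest members by FPKM were HSPA5 (296 ± 10.3), HSP90B1 (249 ± 9.47), CANX (224 ± 6.15), P4HB (188 ± 1.93) and CALR (171 ± 3.91), that is, the general chaperones, both lectins and the main disulfide isomerase. XBP1 was at 147 ± 5.50 FPKM, whereas the sensors ERN1 (13.5 ± 0.107), ATF6 (10.9 ± 0.673) and EIF2AK3 (9.25 ± 0.312) were far lower. AGR2 was the lowest tested member at 0.596 ± 0.217 FPKM. Together the 37 tested members took 0.976% ± 0.004 of raw counts in Control, 1.70% ± 0.00577 in NOB, 0.856% ± 0.00416 in SOR and 1.40% ± 0.0200 in SOR+NOB. These shares are not TMM-scaled. As TMM-scaled CPM the sums were 9794 ± 150.4 in Control, 16266 ± 87.4 in NOB, 9219 ± 76.5 in SOR and 13621 ± 353 in SOR+NOB. In RNA from a whole culture, a change in every cell and a change in some of them cannot be told apart.

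With nobiletin alone nearly the whole set rose. At least 1 difference among the 4 groups was called in all 37 tested members, against 78.5% of all genes. In NOB 33 of them rose and 1 fell, where 18.9% of all 17115 genes rose and 19.2% fell (38.2% in either direction). The median log2 fold change of the members was 0.70, against 0.01 over all genes, and NOB was the group with the highest mean for 32 members (20.3% of all genes). In 33 members all NOB libraries were above all Control libraries, which held for 27.6% of all genes. The set was proposed with this rise known, so the count describes it.

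Around BiP, 9 of 10 chaperone genes rose in NOB with a median log2 fold change of 0.93. HSPA5 was at 1199, 1132 and 1154 CPM in Control and at 2243, 2260.2 and 2268 in NOB (log2 fold change 0.96 ± 0.05, adjusted p = 1.52e-13). The NOB libraries lay within 25 CPM of each other and far above Control. SDF2L1, which joins DNAJB11 in a complex that keeps clients soluble, had 16.6, 18.1 and 16.0 CPM in Control and 54.8, 44.7 and 51.7 in NOB (1.58 ± 0.11). MANF, a small BiP-binding protein that is also secreted, went from 43.1 ± 0.698 to 128 ± 4.31 CPM (1.57 ± 0.08). These were the steepest rises among the chaperones, and in both genes every NOB library exceeded every Control library. HYOU1, the exchange factor that resets BiP, rose by 1.17 ± 0.06, and the J-domain cochaperones DNAJB9 and DNAJB11 by 0.93 ± 0.07 each. The J-domain protein DNAJC3 rose less (0.30 ± 0.06), and SDF2, a relative of SDF2L1, was the chaperone that did not pass (0.14 ± 0.09, adjusted p = 0.234). HSP90B1, the ER form of HSP90, rose by 0.75 ± 0.06 and CRELD2 by 0.88 ± 0.10.

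All 3 lectin cycle genes and all 8 isomerases and oxidases rose in NOB. CALR, soluble calreticulin, went from 466 ± 13.2 to 1016 ± 26.2 CPM (1.12 ± 0.06), whereas its membrane partner CANX rose by 0.33 ± 0.05 and UGGT1, which marks misfolded glycoproteins for another round, by 0.46 ± 0.06. PDIA4 was at 384, 372 and 379 CPM in Control and at 1019.7, 1028 and 1026 in NOB (1.44 ± 0.05, adjusted p = 3.56e-16). Its libraries hardly varied within a group, and none of the NOB values came near Control. P4HB, the main isomerase, rose by 0.86 ± 0.04, PDIA3, which works with the lectins, by 0.88 ± 0.04, PDIA6 by 0.91 ± 0.04 and PDIA5 by 1.06 ± 0.07. AGR2, an isomerase known from mucus-secreting cells, had 1.58, 2.37 and 1.15 CPM in Control and 21.8, 22.4 and 17.9 in NOB (3.60 ± 0.24, adjusted p = 7.77e-11). It rose 12.2-fold from counts of 25 to 50 per library, the largest rise in the set. ERO1B, which oxidises the isomerases, rose by 0.62 ± 0.10. The rise of its paralog ERO1A (0.30 ± 0.11, adjusted p = 0.0346) was lost without Control replicate 2 or 3 or NOB replicate 2 or 3 (adjusted p = 0.101, 0.105, 0.0815 and 0.101), and with RLE scaling or limma on log2(FPKM + 1) or log2(FPKM + 0.1) (adjusted p = 0.0529, 0.0989 and 0.0979).

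ERAD genes rose too, in 8 of 8 tested, by a smaller median of 0.52. EDEM2, a mannosidase-like protein that helps trim glycoproteins for disposal, went from 31.9 ± 1.37 to 71.4 ± 1.65 CPM (1.16 ± 0.08) and led them, ahead of the ubiquitin ligase SYVN1 (0.70 ± 0.06) and EDEM1 (0.68 ± 0.06). HERPUD1, a membrane scaffold of the ligase complex, was at 301, 287 and 286 CPM in Control and 403, 399 and 391 in NOB (0.45 ± 0.05). The ligase partner SEL1L rose by 0.32 ± 0.06, and the channel proteins DERL1 and DERL2 by 0.57 ± 0.07 and 0.46 ± 0.07. Both ER membrane genes rose, the translocon subunit SEC61B by 0.70 ± 0.08 and WFS1, wolframin, by 0.88 ± 0.05.

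The sensors and factors did not move as one in NOB. EIF2AK3 was at 49.3, 52.6 and 49.5 CPM in Control and 78.9, 78.6 and 77.5 in NOB (0.63 ± 0.07), and CREB3L2, a membrane-bound factor that promotes ER export, rose by 0.45 ± 0.05. XBP1 fell, from 461, 445 and 433 CPM in Control to 316, 312 and 319 in NOB (-0.50 ± 0.05, adjusted p = 3.88e-08). It was the member that fell, with no overlap of the libraries. ERN1 was at 147, 148 and 146 CPM in Control and 161, 163 and 171 in NOB, a rise of 0.17 ± 0.05 (adjusted p = 0.0151) that was lost without Control replicate 1 or 3 or NOB replicate 3 (adjusted p = 0.0513, 0.0633 and 0.0849) and when weakly counted genes were kept (adjusted p = 0.0632). ATF6, at 89.4, 80.3 and 88.7 CPM in Control and 84.2, 86.7 and 84.0 in NOB, overlapped between the groups (-0.02 ± 0.07, adjusted p = 0.850), as its paralog ATF6B did not pass either (-0.09 ± 0.08, adjusted p = 0.412).

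**Figure D1:**
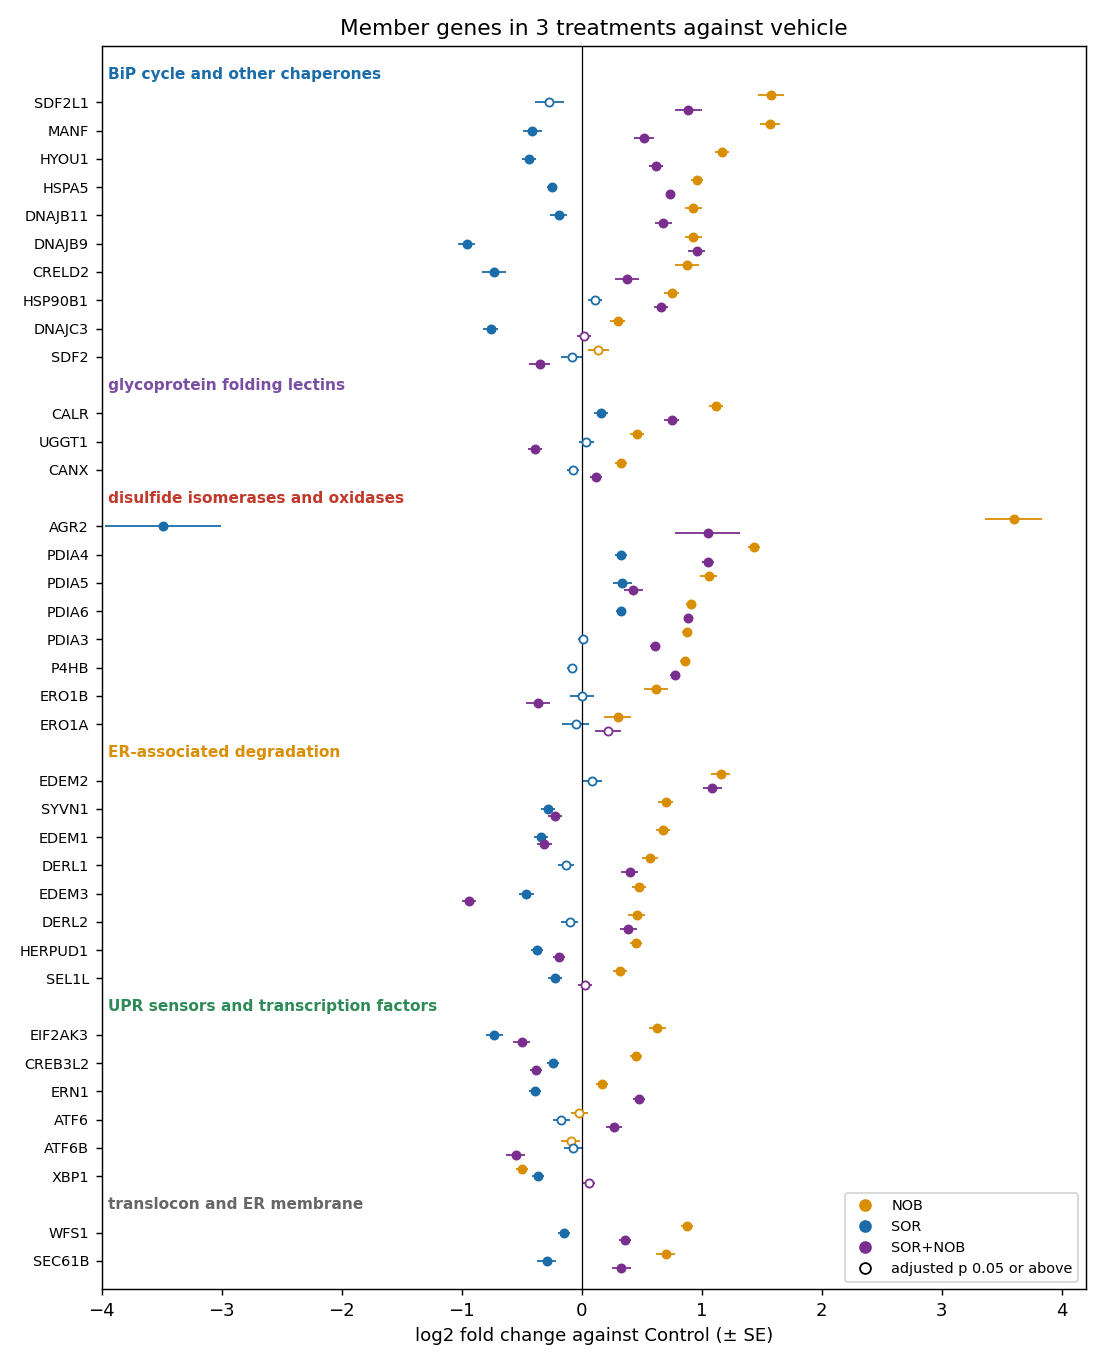
Log2 fold change of 37 member genes against Control (x axis, ± SE from edgeR) in NOB, SOR and SOR+NOB, grouped by role on the y axis and ordered within a role by the NOB value; open points did not pass adjusted p under 0.05. NOB points lie right of 0 for most genes, from -0.50 (XBP1) to 3.60 (AGR2), while SOR points lie mostly at or left of 0 and SOR+NOB points spread from -0.94 to 1.09.

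Sorafenib alone moved the set less and mostly down. Of 37 members 19 fell and 4 rose, where 19.3% of all genes fell and 21.7% rose (41.0% in either direction), and the median was -0.19, against 0.00 over all genes. Without SOR+NOB replicate 1, which enters the shared estimate of spread, 22 fell and 5 rose. SOR held the lowest mean of the 4 groups for 23 members (22.1% of all genes). DNAJB9, a J-domain cochaperone that guides clients to ERAD and holds ERN1 inactive, had 88.5, 89.4 and 84.4 CPM in Control and 43.6, 44.2 and 47.1 in SOR (-0.96 ± 0.07, adjusted p = 4.12e-10). DNAJC3 fell by 0.76 on the log2 scale, CRELD2 by 0.73 and EIF2AK3 by 0.73, the last from 50.5 ± 1.80 to 30.4 ± 0.573 CPM. HSPA5, at 985, 966 and 984 CPM, fell by 0.25 (adjusted p = 1.04e-04), and HYOU1 and MANF fell by 0.44 and 0.41. Among ERAD genes EDEM3 (-0.46 ± 0.06), HERPUD1 (-0.37 ± 0.05), EDEM1 (-0.34 ± 0.06), SYVN1 (-0.28 ± 0.06) and SEL1L (-0.22 ± 0.06) fell. XBP1 (345, 348 and 347 CPM) fell by 0.36 and ERN1 (107, 116 and 115 CPM) by 0.39, again with no overlap with Control, and ATF6 was at -0.17 ± 0.07 (adjusted p = 0.0618). ATF6 passed without Control replicate 2, SOR replicate 1 or SOR+NOB replicate 1 or 2 (adjusted p = 0.0365, 0.0418, 0.00617 and 0.039), and SDF2L1, at 14.2, 14.5 and 13.3 CPM, passed without SOR+NOB replicate 1 or 2 (adjusted p = 0.0129 and 0.0387).

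Some isomerases went the other way. PDIA4 (0.33 ± 0.05), PDIA5 (0.34 ± 0.08) and PDIA6 (0.33 ± 0.04) rose in SOR, the last from 339 ± 0.439 to 427 ± 5.55 CPM, while PDIA3 (0.01 ± 0.04, adjusted p = 0.871) and P4HB (-0.08 ± 0.04, adjusted p = 0.117) did not pass. P4HB passed without SOR+NOB replicate 1 (adjusted p = 0.0201), as did HSP90B1 (adjusted p = 0.00281, at 0.11). The rise of CALR (0.16 ± 0.06, adjusted p = 0.0236) was lost without Control replicate 1 or 3 or SOR replicate 1 or 2 (adjusted p = 0.092, 0.0523, 0.0656 and 0.0551). AGR2 fell furthest, from 1.58, 2.37 and 1.15 CPM to 0.167, 0.0555 and 0.203 (-3.49 ± 0.48, adjusted p = 3.28e-06), on 4, 1 and 4 counts in the SOR libraries. Small falls of DNAJB11 (-0.19 ± 0.07, adjusted p = 0.0420) and WFS1 (-0.15 ± 0.05, adjusted p = 0.0290) each depended on single libraries. DNAJB11 lost its call without any 1 of the Control or NOB libraries or SOR replicate 2 (adjusted p = 0.095, 0.0721 and 0.115 for Control, 0.0559, 0.0558 and 0.0566 for NOB and 0.294 for SOR replicate 2, at -0.09). WFS1 lost it without any Control library or SOR replicate 1 or 3 (adjusted p = 0.0684, 0.0888, 0.0692, 0.102 and 0.0839). Both were also lost when weakly counted genes were kept (adjusted p = 0.0508 and 0.105).

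Tested directly, NOB was above SOR in 33 of 37 members and below it in 1, where 19.8% of all genes lay above SOR and 20.7% below (40.5% in either direction), with a median of 0.94 on the log2 scale. Without SOR+NOB replicate 1, which enters only the shared spread, the counts were 35 and 1. The largest of these differences was in AGR2 (7.09 ± 0.36), followed by MANF (1.98 ± 0.08), DNAJB9 (1.89 ± 0.07), SDF2L1 (1.85 ± 0.11), HYOU1 (1.61 ± 0.06) and CRELD2 (1.61 ± 0.10). XBP1 was the member that was lower in NOB than in SOR (-0.14 ± 0.05, adjusted p = 0.0336), a call lost without any NOB library or any SOR library (adjusted p = 0.0794, 0.105 and 0.0687 for NOB replicates 1 to 3, and 0.0589, 0.0649 and 0.0616 for SOR) and when weakly counted genes were kept (adjusted p = 0.0852). ATF6 (0.15 ± 0.07, adjusted p = 0.103), ATF6B (-0.01 ± 0.08, adjusted p = 0.915) and SDF2 (0.22 ± 0.09, adjusted p = 0.0558) did not pass. Without SOR+NOB replicate 1 the call for ATF6 passed (adjusted p = 0.0169), as did that for SDF2 (adjusted p = 0.0203), which also passed without SOR replicate 3 and without SOR+NOB replicate 2 (adjusted p = 0.0387 and 0.0481). ERO1A lost its call without SOR replicate 1 (adjusted p = 0.0644) and with limma on log2(FPKM + 1) (adjusted p = 0.0516).

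**Figure D2:**
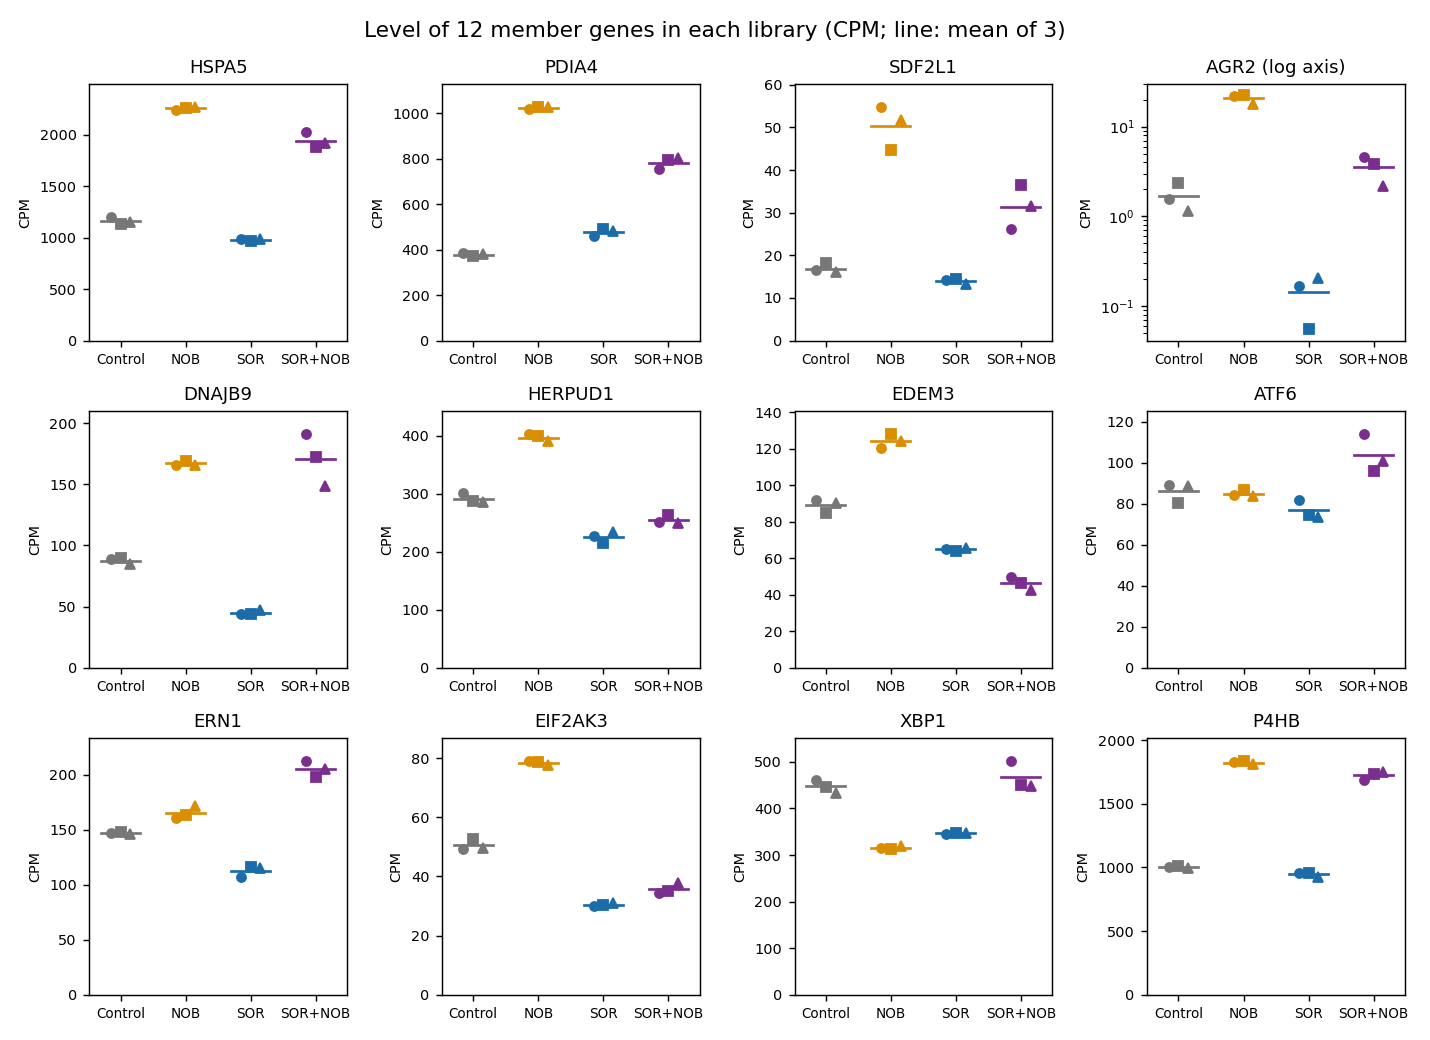
CPM (y axis, from 0 except for AGR2, which has a log axis) of 12 member genes in each of the 12 libraries by group (x axis); circles, squares and triangles are replicates 1, 2 and 3 and lines are group means. HSPA5, PDIA4 and P4HB are high in NOB and SOR+NOB, EDEM3 and EIF2AK3 are high in NOB and low in SOR+NOB, and XBP1 is low in NOB and in SOR but not in SOR+NOB.

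With both compounds members moved in both directions. Against Control, 23 of 37 members rose and 10 fell, where 32.2% of all genes rose and 32.0% fell (64.2% in either direction), with a median of 0.38, against -0.02 over all genes. Without SOR+NOB replicate 1 the counts were 22 and 10. Each role except the pair of membrane genes held both rises and falls, and no difference between roles was tested. Of the 10 chaperones 8 rose (median 0.64), as did 6 of the 8 isomerases and oxidases (median 0.70), CALR and both membrane genes. HSPA5 was at 2028, 1878 and 1918 CPM in SOR+NOB (0.74 ± 0.04), P4HB at 1688, 1730.4 and 1750.2 (0.78 ± 0.04) and PDIA4 at 753, 795 and 802 (1.05 ± 0.05). In all 3 genes every SOR+NOB library was above every Control library. EDEM2 (62.4, 74.8 and 66.8 CPM, 1.09 ± 0.08) rose most of all members, and the ERAD genes DERL1 (0.40 ± 0.07) and DERL2 (0.39 ± 0.07) also rose. AGR2 was at 4.56, 3.86 and 2.17 CPM (1.05 ± 0.27, adjusted p = 0.00182).

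Of the 10 members that fell 4 were ERAD genes and 3 were sensors or factors, and the others were UGGT1, ERO1B and SDF2. EDEM3 was at 92.0, 84.8 and 90.1 CPM in Control and 49.9, 46.6 and 42.7 in SOR+NOB (-0.94 ± 0.06, adjusted p = 2.99e-11), the deepest fall. EDEM1 (-0.31 ± 0.06), SYVN1 (-0.22 ± 0.06) and HERPUD1 (-0.19 ± 0.05) fell with it, as did UGGT1 (-0.39 ± 0.06), ERO1B (-0.36 ± 0.10) and SDF2 (-0.35 ± 0.09). HERPUD1 stood at 252, 264 and 249 CPM, below all 3 Control libraries. Among sensors, ATF6B (-0.55 ± 0.08) and EIF2AK3 (-0.50 ± 0.07) fell, as did the factor CREB3L2 (-0.38 ± 0.05), whereas ERN1 (0.48 ± 0.05) and ATF6 (0.27 ± 0.07) rose. ERN1 was at 212, 198 and 205 CPM and ATF6 at 114, 96.2 and 101, and both were above every library of the other 3 groups. EIF2AK3 was at 34.3, 35.1 and 37.8 CPM, below every Control and NOB library and above those of SOR. XBP1 stood at 501, 451 and 449 CPM and overlapped Control (0.06 ± 0.05, adjusted p = 0.265). DNAJC3 (0.02 ± 0.06, adjusted p = 0.837) and SEL1L (0.03 ± 0.06, adjusted p = 0.725) did not pass, nor did ERO1A (0.22 ± 0.11, adjusted p = 0.0869), which was at 137, 94.5 and 93.0 CPM and passed without SOR+NOB replicate 2 or 3 (adjusted p = 0.0193 and 0.0148). The small rise of CANX (0.12 ± 0.05, adjusted p = 0.0432) was lost without any 1 of 11 libraries, SOR+NOB replicate 2 being the exception (adjusted p = 0.0531 to 0.165), and was 0.06 without SOR+NOB replicate 1. It was also lost under all 7 other alternatives (adjusted p = 0.0588 to 0.217).

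Nobiletin added to sorafenib, which compares SOR+NOB with SOR, can be set beside nobiletin alone because these comparisons share no library. Of 37 members 28 rose and 6 fell when nobiletin was added, where 31.4% of all genes rose and 31.6% fell (63.0% in either direction). Without SOR+NOB replicate 1 the counts were 27 and 6. Members that rose in both settings numbered 26 (70.3% of members, against 8.96% of all genes). Part of this gap was fixed by the choice, since the set was proposed with its rise in NOB known. Among genes that rose in NOB, 26 of 33 members and 1533 of all 3243 genes also rose when nobiletin was added. The log2 fold changes of the members in these comparisons had a Pearson r of 0.79 and a Spearman rho of 0.64 over 37 genes. Over 17115 genes the values were 0.12 and 0.14. The comparisons share no library but come from the same cell line and count table. The Pearson r includes AGR2 (3.60 and 4.53), which lies far from the other members and has 4, 1 and 4 counts in SOR. A value without AGR2 was not computed. AGR2 rose from 0.142 ± 0.0770 CPM in SOR to 3.53 ± 1.23 in SOR+NOB (4.53 ± 0.43), DNAJB9 to 170.3 ± 21.0 CPM (1.92 ± 0.07), and SDF2L1 by 1.17 ± 0.11. CREB3L2, EDEM3, ERO1B and UGGT1 rose with nobiletin alone and fell when it was added to sorafenib. XBP1 did the reverse, with -0.50 ± 0.05 alone and 0.43 ± 0.05 on sorafenib. The fall of CREB3L2 was small (-0.13 ± 0.05, adjusted p = 0.0336) and was lost without SOR replicate 1 or SOR+NOB replicate 2 or 3 (adjusted p = 0.0625, 0.152 and 0.0572, with -0.08 without SOR+NOB replicate 2). ERO1A (0.27 ± 0.11, adjusted p = 0.0400) lost its rise without Control replicate 1 or 3, any SOR library or SOR+NOB replicate 1 (adjusted p = 0.0509, 0.0577, 0.141, 0.0609, 0.089 and 0.281, with 0.07 for the last), and SDF2 (-0.28 ± 0.09) its fall without SOR replicate 3 (adjusted p = 0.0565). The ERO1A call was also lost with RLE scaling, with SOR and SOR+NOB fitted alone and with limma on log2(FPKM + 1) and log2(FPKM + 0.1) (adjusted p = 0.0599, 0.086, 0.138 and 0.136), and that of CREB3L2 with these groups fitted alone (adjusted p = 0.109).

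**Figure D3:**
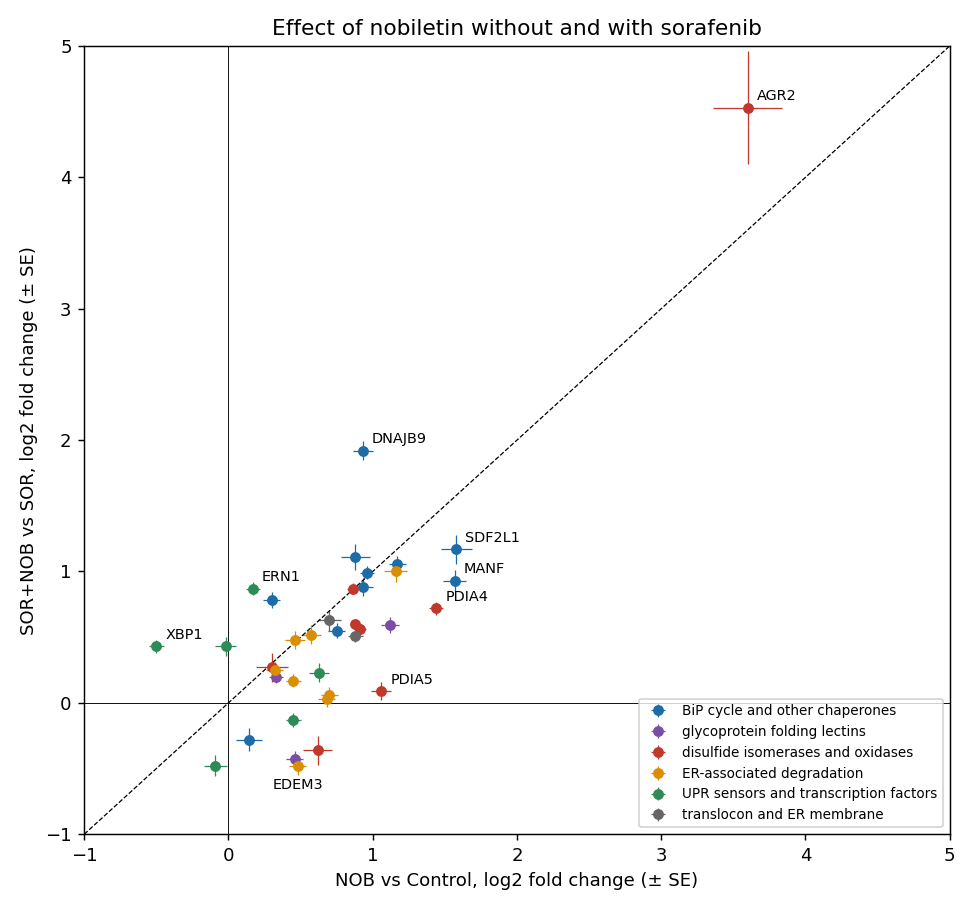
Log2 fold change of 37 member genes with nobiletin alone (x axis, NOB against Control) and with nobiletin added to sorafenib (y axis, SOR+NOB against SOR), ± SE, coloured by role; the dashed line marks equal effects. Most genes are above 0 on both axes, and 27 of 37 lie below the dashed line, as do 8879 of all 17115 genes. DNAJB9 (0.93 and 1.92) lies far above the line, and XBP1 (-0.50 and 0.43) is left of 0 and above 0.

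The interaction test asks whether the effect of nobiletin differed with sorafenib present. It was called in 23 of 37 members, 5 with a larger and 18 with a smaller log2 effect on sorafenib, where 25.1% of all genes were larger and 26.9% smaller (52.0% in either direction). Without SOR+NOB replicate 1 the counts were 5 and 22. Larger values were those of DNAJB9 (0.99 ± 0.10), XBP1 (0.93 ± 0.07), ERN1 (0.70 ± 0.07), DNAJC3 (0.48 ± 0.08) and ATF6 (0.46 ± 0.10), each above 0 with every library left out in turn. The smaller ones were led by PDIA5 (-0.98 ± 0.11), ERO1B (-0.98 ± 0.15), EDEM3 (-0.96 ± 0.09), UGGT1 (-0.89 ± 0.08) and PDIA4 (-0.72 ± 0.06). HSPA5 (0.03 ± 0.06, adjusted p = 0.714), P4HB (0.00 ± 0.06, adjusted p = 0.975) and DERL2 (0.02 ± 0.09, adjusted p = 0.859) did not pass. The nobiletin effect on HSPA5 was 0.96 ± 0.05 alone and 0.99 ± 0.05 on sorafenib. AGR2, with its wide error (0.93 ± 0.59, adjusted p = 0.198), did not pass either.

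Sorafenib added to nobiletin, which compares SOR+NOB with NOB, lowered most of the set. Of 37 members 27 fell and 3 rose, where 30.4% of all genes fell and 30.3% rose (60.7% in either direction), and 29 fell and 3 rose without SOR+NOB replicate 1. The 3 that rose were all sensors or factors, namely XBP1 (0.57 ± 0.05), ERN1 (0.32 ± 0.05) and ATF6 (0.29 ± 0.07). AGR2 fell from 20.7 ± 2.42 to 3.53 ± 1.23 CPM (-2.56 ± 0.22), EDEM3 from 124 ± 3.89 to 46.4 ± 3.62 (-1.42 ± 0.06), EIF2AK3 from 78.3 ± 0.707 to 35.7 ± 1.81 (-1.13 ± 0.07) and MANF from 128 ± 4.31 to 61.6 ± 6.52 (-1.05 ± 0.07). DNAJB9 (0.03 ± 0.07, adjusted p = 0.743), PDIA6 (-0.02 ± 0.04, adjusted p = 0.699) and EDEM2 (-0.07 ± 0.07, adjusted p = 0.421) did not pass, and their levels in SOR+NOB and NOB were 170.3 ± 21.0 and 167 ± 2.01, 630.1 ± 13.2 and 639 ± 10.1, and 68.0 ± 6.28 and 71.4 ± 1.65 CPM. HSP90B1 (-0.09 ± 0.06, adjusted p = 0.229) and ERO1A (-0.08 ± 0.11, adjusted p = 0.519) passed without SOR+NOB replicate 1, at -0.18 and -0.29 (adjusted p = 2.02e-05 and 8.30e-06). The fall of DERL1 (-0.17 ± 0.07, adjusted p = 0.0379) was lost without any NOB library or SOR+NOB replicate 2 or 3 (adjusted p = 0.0552, 0.116, 0.0731, 0.112 and 0.117), and with these groups fitted alone (adjusted p = 0.0778).

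The members' effects were also set beside gene length and starting level, as a description. Across the 37, the NOB effect had a Spearman rho of -0.53 with gene length, against -0.05 over all genes, and 0.08 with the Control FPKM. For SOR+NOB against Control the values were -0.50 with length (0.03 over all genes) and 0.23 with level. These points share libraries and a count normalisation that does not use length. The 11 members with an ERSE, ERSE-II or UPR element in the window had a median log2 fold change of 0.88 in NOB (-0.50 to 1.58), and the 24 with a window and none of them had 0.66 (-0.09 to 3.60). In SOR+NOB against Control the medians were 0.62 and 0.30, and the ranges overlapped widely in both comparisons. XBP1, which fell in NOB, and HSPA5, which rose, both hold an exact ERSE between 34 and 66 bases before the start, printed in capitals above.

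Most lists of other secretory pathway genes moved up with the members in NOB, where 18.9% of all genes rose and 19.2% fell. The lists too were chosen with earlier results of these data known, so their counts only describe them. The medians were lowest for calcium handling (0.16), PERK and ATF4 output (0.19) and ATF6 activation with the CREB3 family (-0.08). Of 17 translocation and signal peptidase genes 15 rose and 0 fell (median 0.84), led by the translocon-associated subunits SSR1 (239 ± 3.53 to 545 ± 11.9 CPM, 1.19 ± 0.07) and SSR3 (1.13 ± 0.06). The other 2 were not called by edgeR. Of 18 ER export and retrieval genes 16 rose and 1 fell (median 0.66), with the COPII coat subunit SEC24D at 1.78 ± 0.07 and the KDEL receptor KDELR3, which returns chaperones to the ER, at 1.64 ± 0.13. Oligosaccharyltransferase subunits rose in 9 of 12 (median 0.59, RPN1 0.94 ± 0.05), other ERAD genes in 14 of 20 (median 0.32, UBE2J1 0.74 ± 0.07) and other disulfide isomerases in 11 of 14 with 1 fall (median 0.37). Of 6 other BiP cochaperones and exchange factors 3 rose and 1 fell (median 0.54), with the exchange factor SIL1 at 1.58 ± 0.12 and the J-domain protein DNAJB12 at -0.28 ± 0.10. The calcium handling genes were mixed, with 5 of 11 up and 1 down, the calcium-binding protein CALU at 1.12 ± 0.06 and the calcium channel ITPR3 at -1.21 ± 0.06. The PERK and ATF4 output genes rose in 4 of 10 and fell in 2, with ASNS at 1.01 ± 0.12 and the phosphatase subunit PPP1R15A, which ends the translation block, at -0.74 ± 0.17. Of 5 tested genes of ATF6 activation and the CREB3 family 2 rose and 1 fell. CREB3L3, a liver factor related to ATF6, fell from 39.4 ± 1.60 to 10.3 ± 0.101 CPM (-1.94 ± 0.09), while MBTPS2, a protease that cleaves ATF6, rose by 0.31 ± 0.09.

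In SOR these lists held rises and falls, and no direction is drawn from their counts, since 21.7% of all genes rose and 19.3% fell. With sorafenib alone translocation genes rose in 4 of 17 and fell in 5, export genes rose in 6 of 18 and fell in 4, and other ERAD genes rose in 5 of 20 and fell in 7. SEC24D (-0.49 ± 0.08) and KDELR3 (-0.96 ± 0.14), both high in NOB, fell, as did SELENOS (-0.59 ± 0.07), SELENOK (-0.60 ± 0.09) and the sulfhydryl oxidase QSOX1 (-1.16 ± 0.07), and ITPR3 fell by 2.14. In SOR+NOB against Control 32.2% of all genes rose and 32.0% fell. The list values that follow were not repeated without SOR+NOB replicate 1, so their dependence on that library was not tested. The PERK and ATF4 output genes rose in 8 of 10 and fell in 2 (median 0.83). The falls were those of ATF4 and CHAC1. CHAC1 was near the floor of detection, at 0.123 ± 0.14 CPM in Control and 0 in SOR+NOB (-4.48 ± 1.80, edgeR adjusted p = 0.0361). PPP1R15A went from 59.0 ± 7.26 to 279.8 ± 70.3 CPM (2.25 ± 0.17) and ATF3 from 19.2 ± 2.31 to 75.3 ± 5.85 (1.97 ± 0.10), while ATF4 itself fell (-0.33 ± 0.05), as did EIF2AK3. Translocation genes rose in 13 of 17 and fell in 2, export genes rose in 11 of 18 and fell in 3, and the oligosaccharyltransferase rose in 8 of 12. The calcium handling genes fell in 6 of 11 and rose in 3, with the channel ITPR2 at -1.12 ± 0.06.

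**Figure D4:**
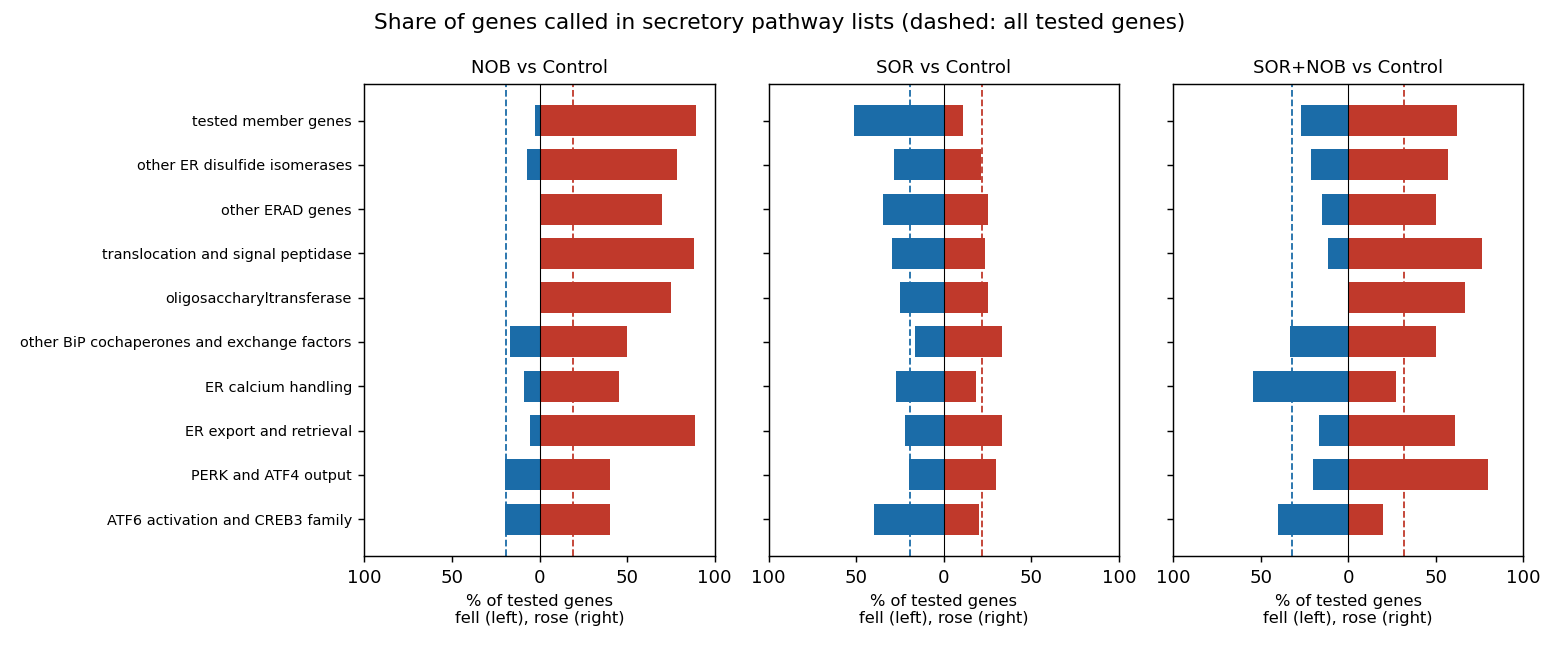
Percentage of tested genes (x axis) that rose (right, red) or fell (left, blue) at adjusted p under 0.05 in the 37 tested members and 9 other secretory pathway lists (y axis), for NOB, SOR and SOR+NOB against Control; dashed lines give the percentages over all 17115 tested genes. In NOB the red bars of the members, of translocation and of export genes reach furthest, at 33 of 37, 15 of 17 and 16 of 18 genes, while in SOR the members' blue bar (19 of 37) is the longest. Members and lists were chosen with earlier results of these data known.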

How the data were processed

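Poly(A) or rRNA-depleted RNA of 12 HepG2 libraries was sequenced. The library protocol in the labels names both without saying which. The deposited table holds raw counts per gene, which the authors made with HISAT2 2.0.5 and featureCounts 1.5.0-p3 on GRCh38, per the submitters' processing notes. A deposited table of the same libraries holds FPKM, used for levels between genes and for alternatives. Strand and multi-mapping settings: not given in the sources used here.

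In R 4.3.3, edgeR 4.0.16 (filterByExpr by group, 17115 of 58735 genes; TMM; robust quasi-likelihood fit, 1 mean per group, all 12 libraries, 8 residual degrees of freedom) gave 7 contrasts and an F-test for any group difference, which called all 37 tested members (78.5% of all genes). Benjamini-Hochberg adjustment ran over every tested gene, and adjusted p under 0.05 was called. SE is the log2 fold change divided by the root of the F statistic. The fit was checked on simulated data. Alternatives were DESeq2 1.42.0, RLE scaling, no low-count filter (33593 genes), only the compared libraries, a replicate block, limma 3.58.1 on log2(FPKM + 1) and log2(FPKM + 0.1) (14934 genes with mean FPKM of at least 0.5), and leaving out each library. All members could be named, and of each other list up to 2 rises and 2 falls per comparison with Control. Members and lists were chosen with earlier results of these data known. Depth was 17945656 to 25669823 counts, which limits weakly expressed members such as AGR2. Replicate pairs all differed by more than sampling noise (chi-square per tested gene of 2.74 or more). Motifs were searched with Python 3.11.15.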

Additional observations from a re-analysis of the deposited data

Results flagged for a closer look

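The effect of nobiletin differed with sorafenib present in 23 members by the interaction term (edgeR, adjusted p under 0.05, 52.0% of all genes), which is why they are listed. The values are log2 effects with sorafenib minus without. They were above 0 in DNAJB9 (0.99), XBP1 (0.93), ERN1 (0.70), DNAJC3 (0.48) and ATF6 (0.46). Among chaperones and lectin cycle genes they were below 0 in UGGT1 (-0.89), MANF (-0.64), CALR (-0.53), SDF2 (-0.42) and SDF2L1 (-0.41). Isomerases and oxidases gave -0.98 in PDIA5, -0.98 in ERO1B, -0.72 in PDIA4, -0.35 in PDIA6 and -0.28 in PDIA3. ERAD genes gave -0.96 in EDEM3, -0.65 in SYVN1, -0.65 in EDEM1 and -0.27 in HERPUD1. The sensors and factors EIF2AK3, ATF6B and CREB3L2 were at -0.40, -0.40 and -0.58, and WFS1 was at -0.38. The call for SDF2L1 (adjusted p = 0.0319) was lost without Control replicate 1 or 3, NOB replicate 1 or 3, or SOR replicate 1 or 2 (adjusted p = 0.0581, 0.0735, 0.0933, 0.0664, 0.0586 and 0.0669). CANX, HSP90B1, ERO1A and SEL1L, not called with all libraries, were called without SOR+NOB replicate 1 at -0.20, -0.30, -0.23 and -0.16, and HSP90B1 also without Control replicate 1 (-0.23, adjusted p = 0.044).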

How the results depend on the processing

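The 7 comparisons were repeated under 19 alternatives, of which 12 leave out 1 library each, except that the interaction, which uses all groups, could not be fitted on the compared libraries alone. Every member count stayed within 1.5 times its value, except that the 1 member lower in NOB than in SOR (XBP1) became 0 with no low-count filter, and 0 to 1 when single libraries were left out. No called gene value changed sign. The sign changed in values that were never called with all libraries, given here as log2 differences. The AGR2 interaction (0.93) was -1.30 and called with limma on log2(FPKM + 1) (adjusted p = 3.35e-04) and -0.33 on log2(FPKM + 0.1), and the cause was not tested. In SOR+NOB against Control DNAJC3 gave -0.01 with DESeq2, with RLE scaling and with limma at both pseudocounts and -0.02 with no filter, and SEL1L gave -0.01 with no filter and -0.00 with limma at both. With no filter EDEM1 (SOR+NOB against SOR) and DNAJB9 (SOR+NOB against NOB) gave -0.00, and the interactions of P4HB and DERL2 gave -0.03 and -0.01. The P4HB interaction was -0.00 with limma at both pseudocounts, and PDIA3 in SOR was -0.00 with the compared libraries alone. Leaving out single libraries gave ranges of -0.07 to 0.00 for ATF6 in NOB, -0.06 to 0.04 for ATF6B between NOB and SOR, -0.01 to 0.04 for PDIA3 and -0.06 to 0.05 for ERO1B in SOR, -0.04 to 0.04 for DNAJC3 and -0.06 to 0.10 for SEL1L in SOR+NOB, -0.01 to 0.06 for EDEM1 between SOR+NOB and SOR, and -0.06 to 0.12 for DNAJB9 and -0.29 to 0.01 for ERO1A between SOR+NOB and NOB. For interactions the ranges were -0.01 to 0.05 (DERL2), -0.15 to 0.01 (DNAJB11), -0.23 to 0.06 (ERO1A), -0.00 to 0.05 (HSPA5), -0.02 to 0.02 (P4HB) and -0.18 to 0.03 (SEC61B). Same-numbered replicates did not deviate together (18 pairs, correlations of -0.096 to 0.089, and 4 of 12 libraries closest to their own number), so the numbers are not treated as pairs. With the replicate block 34, 23 and 32 members were called against Control (NOB, SOR, SOR+NOB), 34 and 30 when nobiletin or sorafenib was the added compound, 34 between the single compounds and 23 in the interaction, and the CANX call in SOR+NOB was the 1 lost (adjusted p = 0.0588). Other alternatives ended calls that are given beside the genes, and with no filter also those of HERPUD1 and EIF2AK3 between SOR+NOB and SOR (adjusted p = 0.056 and 0.0561). Calls were gained in SOR with the compared libraries alone, where 28 members passed instead of 23 (ATF6, CANX, P4HB, HSP90B1 and SDF2L1, adjusted p = 0.00326, 0.0272, 0.012, 0.0137 and 0.0157), and between NOB and SOR for ATF6 and SDF2 (0.0229 and 0.0273). P4HB in SOR and between SOR+NOB and NOB, and SDF2 between NOB and SOR, passed with DESeq2 and both limma fits (adjusted p = 0.011 to 0.0498). With no filter ERO1A in SOR+NOB, SDF2L1 in SOR and the HSP90B1 interaction passed (adjusted p = 0.0288, 0.0482 and 0.0103). Low counts limit AGR2, with 1 to 4 counts per SOR library, and DERL3.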
